A study of Mus musculus with 8 samples.

Results

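The 10 genes described here build and crosslink the elastic fibres of the arterial wall. They are *Eln*, *Fbn1*, *Emilin1*, *Mfap4*, *Ltbp4*, *Fbln5*, *Efemp2*, *Lox*, *Loxl1* and *Loxl2*. They were taken by gene symbol from the 21859 genes counted in each aorta, and all 10 were found. Whole aortas came from 4 ApoE-/- and 4 wild-type (WT) male mice on the C57BL/6 background, all 40 weeks old and all fed a chow diet. The ApoE-/- mice lack apolipoprotein E in every tissue from birth, so the comparison is between 2 germline genotypes at a single age. Each mouse gave a library of ribodepleted total RNA. The question asked of these libraries in the study was which transcripts differ between atherosclerosis-prone and normal aorta.

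Elastic fibres give large arteries their recoil. Smooth muscle cells secrete tropoelastin, the product of *Eln*, mainly during growth. Fibulin-5 and fibulin-4 bring the monomer to a scaffold of fibrillin microfibrils, and copper-dependent lysyl oxidases turn lysine side chains of tropoelastin into covalent crosslinks. The finished fibre turns over very slowly, and its fragmentation by macrophage and smooth muscle proteases is a known feature of atherosclerosis and aneurysm.

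The chemistry of assembly is visible in the reference coding sequences of the members, of which short stretches are shown to illustrate 3 roles: the monomer (*Eln*), the crosslinking enzymes (*Loxl1* and *Loxl2*) and the carrier (*Fbln5*). The annotated coding transcript of *Eln* has 37 exons and 860 codons. Glycine, valine and proline codons make up 55.8% of them, and alanine codons 21.0%. Of its 38 lysine codons, 22 follow an alanine codon directly. Of 35 exons that are wholly coding, 15 hold at least 2 lysine codons and 18 hold none. Exon 18 (GRCm38, chr5:134718989-134719048, minus strand) is the exon with the most lysine codons after an alanine codon, 3 in all, given in capitals. Exon 25 (chr5:134712550-134712690, minus strand) is a lysine-free exon in which 87.0% of 46 whole codons are for glycine, valine or proline, with the valine codons in capitals.
*Eln* exon 18: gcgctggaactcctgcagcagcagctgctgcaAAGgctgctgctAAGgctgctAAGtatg
*Eln* exon 25: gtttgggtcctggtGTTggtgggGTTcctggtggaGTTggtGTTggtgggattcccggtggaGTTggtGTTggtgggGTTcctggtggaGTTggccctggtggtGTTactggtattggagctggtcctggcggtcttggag

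The lysine codons of exon 18 lie in runs of alanine codons (gct and gca), the pattern of a crosslinking domain, and exon 25 is of the hydrophobic type that gives the protein its elasticity. Lysyl oxidases bind their copper ion through histidines in a conserved loop. The stretches of *Loxl1* (minus strand of chromosome 9, across the junction of exons 3 and 4) and *Loxl2* (plus strand of chromosome 14, across the junction of exons 10 and 11) that encode this loop are given with the histidine codons in capitals. They share 28 of 39 bases.
*Loxl1* loop: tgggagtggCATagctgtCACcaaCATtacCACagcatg
*Loxl2* loop: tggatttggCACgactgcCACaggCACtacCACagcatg

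Fibulin-5 has an integrin-binding motif of arginine, glycine and aspartate. In *Fbln5* it occurs once in frame, from codon 54 of 448, in exon 4 (chr12:101809903-101809959, minus strand), with its codons in capitals.
*Fbln5* motif: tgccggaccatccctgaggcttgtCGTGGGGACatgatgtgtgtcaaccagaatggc

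Before the members' values, the libraries need a description. Read pairs counted on genes numbered 23240995 to 23940156 in ApoE-/- and 18375898 to 21664598 in WT libraries, and no member had fewer than 379 counts in any library. Levels are given as CPM, the read pairs on a gene scaled to a common library size with edgeR's TMM factors. *Apoe*, the disrupted gene, had 14.7 to 36.3 CPM in ApoE-/- and 536 to 857 CPM in WT libraries, so no library went against its label. Replicate 1 of ApoE-/- stood apart. Its 12 contractile smooth muscle markers (*Acta2*, *Myh11* and others) summed to 6068 CPM, against 15864 to 26447 in the other ApoE-/- and 13819 to 25898 in the WT libraries. Its 10 sympathetic neuron markers, a list added after the values were seen, summed to 7122 CPM, against 67.3 to 551 and 333 to 1255. All 10 of them, *Th* and *Dbh* included, had counts in every library. Replicate 3 of ApoE-/- stood apart in its 8 cartilage markers (*Acan*, *Comp* and others), which summed to 250 CPM, against 47.0 to 101 in the other ApoE-/- and 54.2 to 92.7 in the WT libraries. *Col2a1*, the collagen of cartilage, had 240 CPM there and at most 1.87 CPM in any other library. Smooth muscle and endothelial markers, which define aortic tissue, were present in every library, and the endothelial list summed to 1991 to 2913 CPM in ApoE-/- and 2851 to 3363 CPM in WT. The cardiac muscle list was lower in ApoE-/- (160 to 342 CPM) than in WT (414 to 717 CPM). At an adjusted p under 0.05, edgeR called 0 of 12 endothelial and 0 of 8 cardiac markers. DESeq2, a second test, called 6 and 5, all lower in ApoE-/-, beside 4.81% of all genes. Without ApoE-/- replicate 1 edgeR called 4 and 6, all lower, beside 3.91% of all genes. DESeq2 then called 7 of each, all lower but 1 endothelial marker, beside 10.3% of all genes. In bulk tissue, fewer cells of a type and less RNA per cell cannot be told apart. Of all pairs, 64.4% to 67.7% in ApoE-/- and 69.8% to 72.1% in WT fell in the closing rows that name no gene, and mitochondrial genes took 2.84% to 5.16% and 5.52% to 6.92% of the pairs on genes, neither with overlap between genotypes. The members' fold changes and the calls of each related list are therefore given with and without ApoE-/- replicate 1. The part that these markers and shares play in the genotype differences was not tested.

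**Figure D1:**
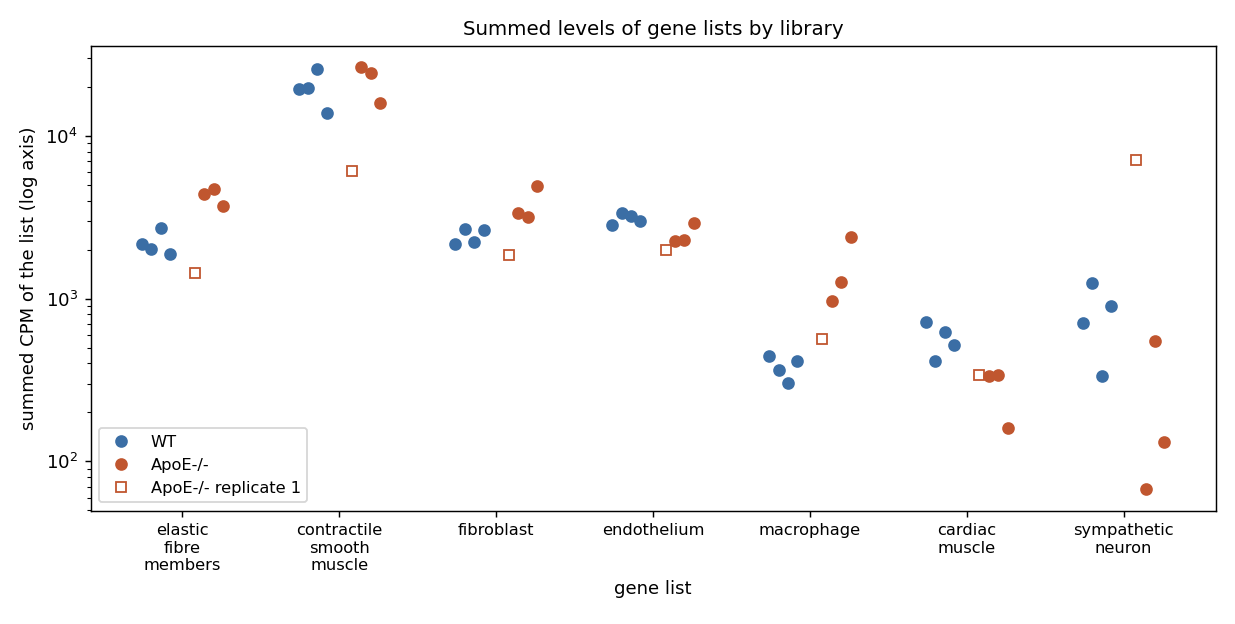
Summed CPM (log axis) of the elastic fibre genes and of 6 cell type marker lists in each of 8 libraries. The open square is ApoE-/- replicate 1, which lies at 6068 CPM for contractile smooth muscle and at 7122 CPM for sympathetic neurons, while its elastic fibre sum of 1434 CPM is below the WT range of 1872 to 2720 CPM.

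Taken as a sum, the elastic fibre genes were more abundant in 3 of 4 ApoE-/- aortas than in any WT aorta, and less abundant in the remaining one. Their summed level was 1434, 4412, 4682 and 3710 CPM in ApoE-/- replicates 1 to 4 and 2179, 2011, 2720 and 1872 CPM in WT replicates 1 to 4. The sum of the 9 fibroblast markers had the same split, with 1849, 3353, 3178 and 4888 CPM in ApoE-/- and 2178 to 2682 CPM in WT. The markers taken singly mostly did not. Only *Lum*, *Pdgfra* and *Pi16* were above every WT library in ApoE-/- replicates 2 to 4. *Lum* was above WT in replicate 1 as well (226 CPM, against at most 118 CPM in WT). Of the 9 markers edgeR called 0 (1 at an unadjusted p under 0.05) and DESeq2 called *Lum* (log2 fold change 2.34, DESeq2 adjusted p = 4.65e-07). Both tools called *Lum* and *Pdgfra* without ApoE-/- replicate 1. The sum was highest in replicate 4 for the fibroblast markers and in replicate 3 for the members, and the part of fibroblasts or of the cartilage signal in the members' levels was not tested. The fitted log2 fold change was above 0 for all 10 members, with a median of 0.63 beside 0.05 over all 15077 genes tested, of which 58% lay above 0. The sign turned for *Mfap4* and *Ltbp4* with limma-voom, another test, with a replicate block (the shared replicate number as a term) and when certain single libraries were left out. With all 8 libraries none of the 10 passed an adjusted p of 0.05 in edgeR's quasi-likelihood test, where 0.464% of all genes did (0.371% higher in ApoE-/-). At an unadjusted p under 0.05 there were 4 members, *Eln*, *Fbn1*, *Lox* and *Loxl2*, beside 11.4% of all genes. DESeq2 called 1 of 10, *Loxl2*, beside 4.81% of all genes (3.12% higher).

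Replicate 1 decided these counts. It was the lowest of its genotype for 10 of 10 members and lay below all WT libraries for 7, and replicate 3 was the highest for 7. Without it edgeR called 6 of 10 members, *Eln*, *Fbn1*, *Fbln5*, *Lox*, *Loxl1* and *Loxl2*, all higher in ApoE-/-, where 2.75% of 15147 genes were called higher and 3.91% in either direction. DESeq2 then called 8 of 10, adding *Efemp2* and *Emilin1*, beside 10.3% of all genes in either direction and 5.75% higher. The values of 8 of 10 members, all but *Mfap4* and *Ltbp4*, were then higher in ApoE-/- without overlap, beside 9.82% of all genes. The median log2 fold change of the members was 0.86 in this fit, and that of all genes 0.00. Leaving out any other single library, edgeR called no member and DESeq2 called *Loxl2*.

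**Figure D2:**
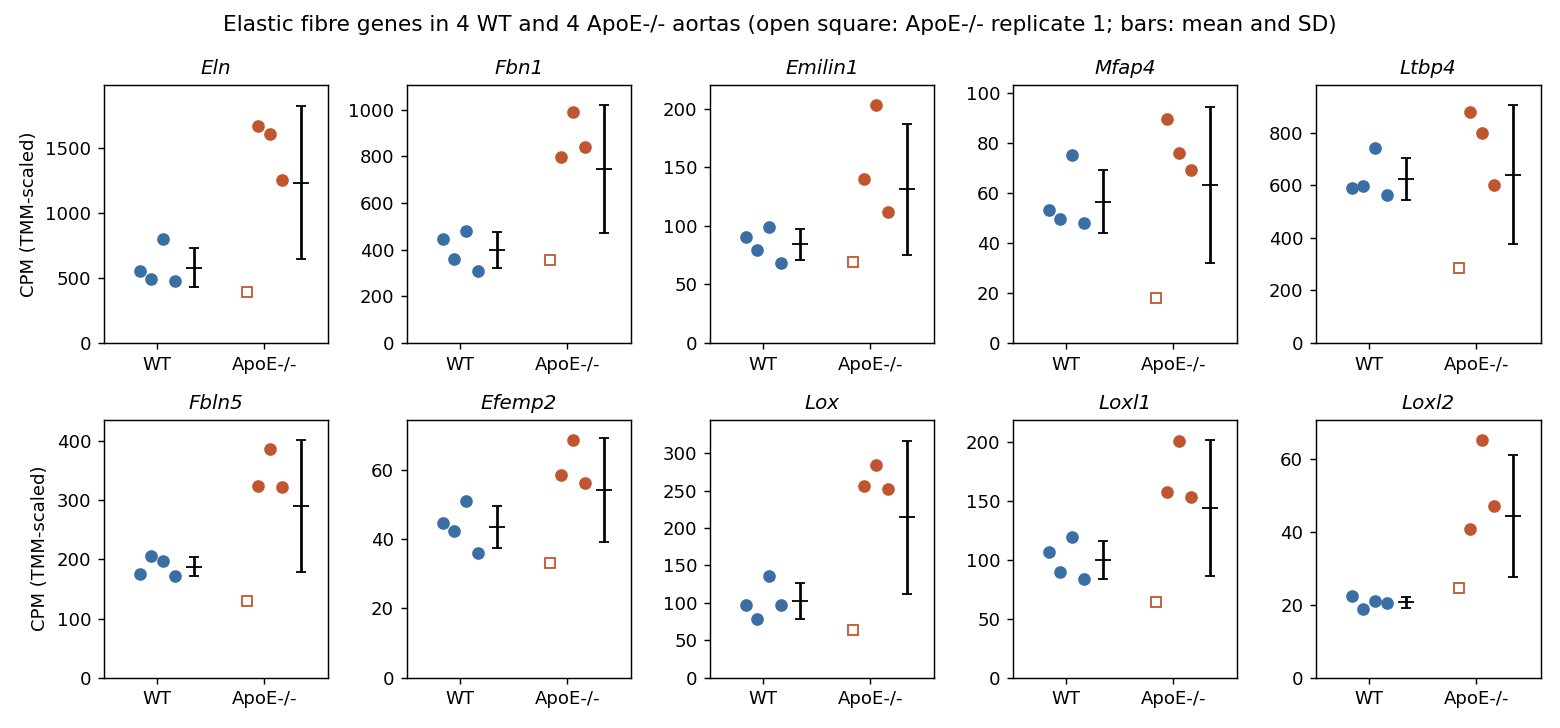
CPM of each elastic fibre gene in 4 WT (blue) and 4 ApoE-/- (orange) aortas, with mean and SD beside each group. The open square, ApoE-/- replicate 1, is the lowest ApoE-/- point in all 10 panels, and the other 3 ApoE-/- points lie above every WT point in 8 panels, all but those of *Mfap4* and *Ltbp4*.

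*Eln* (ENSMUSG00000029675.12, chr5:134702593-134747323, minus strand) encodes tropoelastin, the elastic core of the fibre. It had 393, 1674, 1610 and 1257 CPM in ApoE-/- replicates 1 to 4 and 552, 492, 798 and 475 CPM in WT replicates 1 to 4. Replicates 2 to 4 of ApoE-/- were above every WT library and replicate 1 was below every WT library. The genotype means were 1233 ± 589 CPM (SD, n = 4) and 579 ± 150 CPM (SD, n = 4). The log2 fold change was 1.09 (SE 0.43), with an edgeR adjusted p of 0.370 and a DESeq2 adjusted p of 0.137. Without ApoE-/- replicate 1 it was 1.39 (SE 0.22, edgeR adjusted p = 0.0170), or 2.61 times the WT mean. This is the transcript with the lysine codons shown above.

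*Eln* took a larger share of the summed level of the 10 genes in 3 of the ApoE-/- libraries. It made up 27.4%, 37.9%, 34.4% and 33.9% in ApoE-/- replicates 1 to 4 and 25.3%, 24.5%, 29.3% and 25.4% in WT replicates 1 to 4. Only replicate 1 of ApoE-/- fell inside the WT range.

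Among the microfibril genes, *Fbn1* (ENSMUSG00000027204.13, chr2:125300594-125507993, minus strand) encodes fibrillin-1, the main microfibril protein and the one mutated in Marfan syndrome. It had 354, 796, 989 and 841 CPM in ApoE-/- and 445, 358, 480 and 309 CPM in WT replicates 1 to 4. The 3 higher ApoE-/- libraries did not overlap with WT, and replicate 1 lay within the WT range. ApoE-/- exceeded WT by 0.90 on the log2 scale (SE 0.31, edgeR adjusted p = 0.288, DESeq2 adjusted p = 0.0879), and 1.14 (SE 0.19, edgeR adjusted p = 0.0180) without replicate 1.

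*Emilin1* (ENSMUSG00000029163.9, chr5:30913402-30921277, plus strand) encodes a glycoprotein at the interface of elastin and microfibrils. It had 69.4, 140, 203 and 112 CPM in ApoE-/- and 90.4, 79.4, 98.6 and 68.0 CPM in WT replicates 1 to 4. ApoE-/- replicates 2 to 4 were all above WT, with replicate 3 the highest. The fitted difference was 0.64 on the log2 scale (SE 0.30), with an edgeR adjusted p of 0.495. Without replicate 1 it was 0.85 (SE 0.22), with an edgeR adjusted p of 0.0765 and a DESeq2 adjusted p of 0.00662, and without replicate 3 it was 0.35 (SE 0.25, edgeR adjusted p = 0.691).

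*Mfap4* (ENSMUSG00000042436.12, chr11:61485431-61488900, plus strand) encodes a microfibril-associated protein that binds tropoelastin. It had 18.0, 89.3, 76.0 and 69.2 CPM in ApoE-/- and 53.1, 49.4, 75.0 and 48.0 CPM in WT replicates 1 to 4. With replicate 1 the ApoE-/- range held every WT value. Without it the genotypes still overlapped, through the WT library at 75.0. On the log2 scale the difference was 0.16 (SE 0.43, edgeR adjusted p = 0.938), and 0.47 (SE 0.18, edgeR adjusted p = 0.198) without replicate 1. It was -0.05 without ApoE-/- replicate 2, -0.04 with limma-voom and -0.01 with the replicate block. Exons of *Mfap4* overlap those of *Mapk7* on the other strand, those of *Efemp2* overlap *Mus81*, and those of *Eln*, *Fbn1*, *Lox* and *Loxl2* overlap less studied annotated genes. The libraries were stranded and the deposited counts are named as counted by strand, which would keep such pairs apart. The strand setting of the counting is not given in the sources used here. *Loxl2* also shares exonic bases with a microRNA gene on its own strand.

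*Ltbp4* (ENSMUSG00000040488.18, chr7:27305136-27337692, minus strand) encodes a latent TGF-beta binding protein that works with fibulin-5 in assembly. It had 285, 876, 798 and 600 CPM in ApoE-/- and 590, 597, 743 and 563 CPM in WT replicates 1 to 4. The ranges overlapped, and replicate 1 of ApoE-/- was far below all others. Its fitted difference was 0.04 on the log2 scale (SE 0.32, edgeR adjusted p = 0.981) and 0.29 (SE 0.18, edgeR adjusted p = 0.455) without replicate 1. It was -0.15 without ApoE-/- replicate 2, -0.09 without ApoE-/- replicate 3, -0.01 without WT replicate 4, and -0.07 both with limma-voom and with the replicate block. *Ltbp4* lies 7.61 Mb from *Apoe* on the same chromosome. 

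The short fibulins carry tropoelastin to the microfibril. *Fbln5* (ENSMUSG00000021186.9, chr12:101746565-101819055, minus strand), whose integrin motif is printed above, had 130, 324, 386 and 323 CPM in ApoE-/- and 176, 206, 198 and 172 CPM in WT replicates 1 to 4. The 3 higher ApoE-/- libraries stood clear of a narrow WT range. ApoE-/- exceeded WT by 0.63 on the log2 scale (SE 0.30, edgeR adjusted p = 0.503), and 0.88 (SE 0.12, edgeR adjusted p = 0.0113) without replicate 1.

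*Efemp2* (ENSMUSG00000024909.15, chr19:5473954-5482517, plus strand) encodes fibulin-4, which also tethers lysyl oxidase. It had 33.1, 58.3, 68.7 and 56.1 CPM in ApoE-/- and 44.5, 42.4, 50.8 and 35.9 CPM in WT replicates 1 to 4. Replicate 1 was below every WT library and the other ApoE-/- libraries above them, by a smaller margin than for *Fbln5*. A log2 fold change of 0.32 was fitted (SE 0.22, edgeR adjusted p = 0.713). Without replicate 1 it was 0.49 (SE 0.14), which did not pass in edgeR (adjusted p = 0.0925) and passed in DESeq2 (adjusted p = 0.0251). Without replicate 3 it was 0.18 (SE 0.22, edgeR adjusted p = 0.787).

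The lysyl oxidases gave 3 genes with different margins. *Lox* (ENSMUSG00000024529.14, chromosome 18, 52516067 to 52529867, minus strand), the founding member, had 63.1, 256, 285 and 252 CPM in ApoE-/- and 97.8, 78.7, 136 and 96.7 CPM in WT replicates 1 to 4. Replicates 2 to 4 of ApoE-/- lay close together and far above WT, while replicate 1 was below every WT library. ApoE-/- exceeded WT by 1.07 on the log2 scale (SE 0.43, edgeR adjusted p = 0.377, DESeq2 adjusted p = 0.167). Without replicate 1 it was 1.37 (SE 0.18, edgeR adjusted p = 0.00907).

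*Loxl1* (ENSMUSG00000032334.10, chr9:58287738-58313186, minus strand) encodes the paralog that acts on elastin in adult tissue. It had 63.7, 157, 201 and 153 CPM in ApoE-/- and 107, 89.7, 119 and 83.6 CPM in WT replicates 1 to 4. The pattern was that of *Lox* with a smaller distance between the groups. A log2 fold change of 0.53 was fitted (SE 0.32, edgeR adjusted p = 0.636), and 0.78 (SE 0.16, edgeR adjusted p = 0.0407) without replicate 1. Without replicate 3 it was 0.32 (SE 0.31, edgeR adjusted p = 0.741).

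*Loxl2* (ENSMUSG00000034205.16, chr14:69609068-69695834, plus strand) encodes a paralog best known for crosslinking collagen IV. It had 24.6, 41.0, 65.3 and 47.3 CPM in ApoE-/- and 22.5, 18.9, 21.0 and 20.6 CPM in WT replicates 1 to 4. It was the only member whose genotypes did not overlap with all 8 libraries, beside 5.41% of all genes that were higher without overlap, and its lowest ApoE-/- library was just above the highest WT library. The log2 fold change was 1.10 (SE 0.26), with an edgeR adjusted p of 0.113 and a DESeq2 adjusted p of 0.00638. Without replicate 1 it was 1.30 (SE 0.17, edgeR adjusted p = 0.00871).

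**Figure D3:**
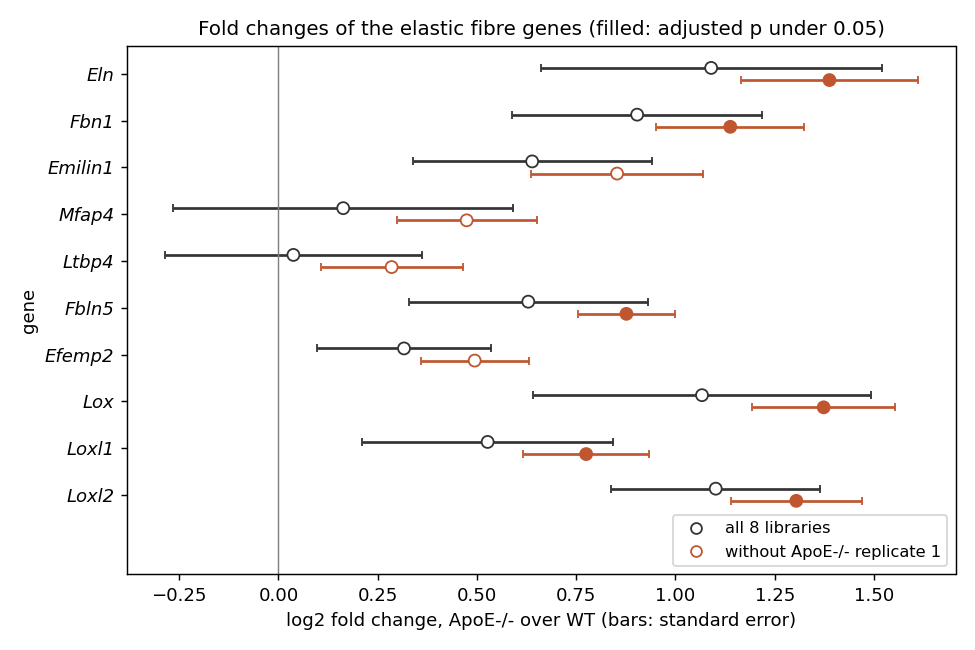
Fitted log2 fold change (ApoE-/- over WT) with standard error for each elastic fibre gene, with all 8 libraries (black) and without ApoE-/- replicate 1 (orange). Filled points, those with an edgeR adjusted p under 0.05, are *Eln*, *Fbn1*, *Fbln5*, *Lox*, *Loxl1* and *Loxl2*, all without replicate 1, and every point lies above 0.

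*Eln* and *Ltbp4* were the most abundant members per kilobase of annotated exon in both genotypes, in opposite order. On this scale WT aortas had most *Ltbp4* (96.4 ± 12.5 CPM per kb, SD, n = 4), then *Eln* (71.5 ± 18.5) and *Fbn1* (32.8 ± 6.47), and least *Loxl2* (3.84 ± 0.272). The ranges of *Ltbp4* and *Eln* overlapped, while those of *Eln* and *Fbn1* did not, and from *Fbn1* through *Loxl1*, *Mfap4*, *Fbln5*, *Lox* and *Emilin1* each gene overlapped with the next. In ApoE-/- aortas *Eln* came first (152 ± 72.8 CPM per kb, SD, n = 4), before *Ltbp4* (99.0 ± 40.8) and *Fbn1* (61.4 ± 22.5), and *Loxl2* remained last (8.24 ± 3.11). With all 4 ApoE-/- libraries the ranges of every neighbouring pair overlapped. Compared within each library, *Eln* was above *Ltbp4* in 4 of 4 ApoE-/- libraries and *Ltbp4* above *Eln* in 4 of 4 WT libraries. The WT order depends on the scale, which divides by all annotated exonic bases (8098 for *Eln*, 6463 for *Ltbp4*). In plain CPM *Eln* (798) was above *Ltbp4* (743) in WT replicate 3 and below it in WT replicates 1, 2 and 4. Without replicate 1 the ranges of *Eln* (155 to 207 CPM per kb), *Ltbp4* (92.8 to 136) and *Fbn1* (65.6 to 81.6) did not overlap, while *Lox* overlapped with *Loxl1* and *Loxl1* with *Fbln5*.

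Across the 8 libraries the gene most like *Eln* was *Lox*. Likeness was the mean absolute difference of log2 CPM over the 8 libraries after each gene was centred, computed for 15076 genes. *Lox* was nearest, at 0.117 on the log2 scale, where the median over all genes was 0.744. The next were *Itih2* (0.164), *Gxylt2* (0.177), *Nupr1* (0.188) and *Klhl30* (0.196). *Fbn1* ranked 9, *Loxl1* 43, *Loxl2* 47, *Fbln5* 56 and *Emilin1* 67, while *Efemp2* (380), *Mfap4* (628) and *Ltbp4* (757) were farther away. All of these points share the same libraries, so the low values of replicate 1 enter every one of them. Over the 7 libraries without it *Lox* was again nearest (0.114, median of all genes 0.707), followed by *Gxylt2* (0.157), *Slc39a14* (0.161), *Fbn1* (0.169) and *Itih2* (0.177). *Klhl30* and *Nupr1* then ranked 12 and 14, *Loxl2* 47, *Emilin1* 80, *Loxl1* 92, *Fbln5* 97, *Efemp2* 596, *Mfap4* 635 and *Ltbp4* 1816.

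Since smooth muscle cells are the main source of tropoelastin, each member was also expressed per 1000 counts on the 12 contractile smooth muscle genes of the same library, a measure chosen after the values were seen. *Eln* then had 64.7, 63.3, 66.2 and 79.2 in ApoE-/- and 28.4, 24.9, 30.8 and 34.4 in WT replicates 1 to 4. For this gene replicate 1 lay among the other ApoE-/- libraries, and the genotypes did not overlap. The ratio of the means was 2.31.

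On this measure 5 of 10 members were higher without overlap (*Eln*, *Fbn1*, *Emilin1*, *Lox* and *Loxl2*), beside 2.48% of all genes. *Lox* had 10.4, 9.70, 11.7 and 15.9 in ApoE-/- and 5.04, 3.97, 5.23 and 7.00 in WT replicates 1 to 4. *Loxl2* had 4.05, 1.55, 2.69 and 2.98 against 1.16, 0.955, 0.811 and 1.49. For *Fbln5*, *Efemp2*, *Mfap4*, *Loxl1* and *Ltbp4* the groups overlapped. Replicate 1 became the highest ApoE-/- library for *Fbn1*, *Fbln5*, *Efemp2*, *Emilin1*, *Loxl1*, *Loxl2* and *Ltbp4*.

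Such a ratio cannot tell a change in a member from a change in the contractile genes. With the whole table scaled to the contractile genes, the median log2 fold change of all genes moved from 0.05 to 0.56 and that of the members from 0.63 to 0.85. edgeR then called 0 of 10 members (0.312% of all genes were called), with adjusted p from 0.703 to 0.774, and 4 members (*Eln*, *Fbn1*, *Lox* and *Loxl2*) had an unadjusted p under 0.05.

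**Figure D4:**
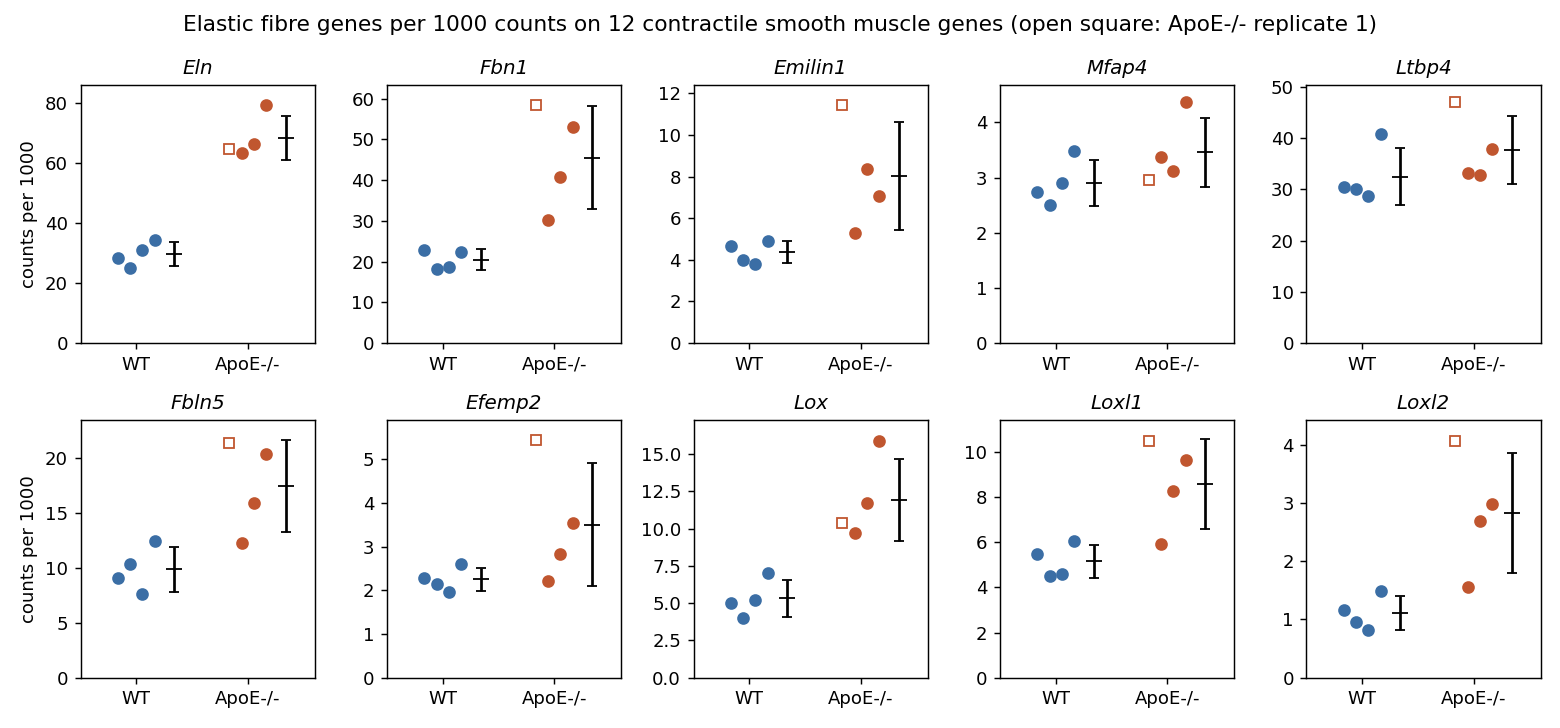
Counts on each elastic fibre gene per 1000 counts on 12 contractile smooth muscle genes, in 4 WT (blue) and 4 ApoE-/- (orange) libraries, with mean and SD. The open square (ApoE-/- replicate 1) is the lowest ApoE-/- point for *Mfap4* only. It is the highest for all other genes but *Eln* and *Lox*. *Eln* spans 63.3 to 79.2 in ApoE-/- and 24.9 to 34.4 in WT.

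Calls of the related lists stand beside 0.464% (edgeR) and 4.81% (DESeq2) of all genes, and 3.91% and 10.3% without ApoE-/- replicate 1. Of 21 other microfibril and elastic fibre proteins, edgeR called 0 and DESeq2 called *Ltbp2*, which encodes a microfibril-bound paralog of *Ltbp4*. It had 157, 269, 549 and 349 CPM in ApoE-/- and 136, 88.3, 141 and 122 CPM in WT replicates 1 to 4, without overlap (log2 fold change 1.44, SE 0.36, edgeR adjusted p = 0.127, DESeq2 adjusted p = 0.00399). The median of the list was 0.17, and 1 gene had an unadjusted edgeR p under 0.05. *Fbln1*, *Fbln2* and *Mfap5* had log2 fold changes of 0.19, 0.32 and 0.03 and passed in neither tool. Without ApoE-/- replicate 1 the median was 0.32, edgeR called *Ltbp2* (log2 fold change 1.68, SE 0.27, adjusted p = 0.0171), and DESeq2 called *Ltbp2* and *Fbln7*. *Tnxb*, tenascin-X, with the highest mean CPM of this list over all 8 libraries, had 505 to 1153 CPM in ApoE-/- and 642 to 721 CPM in WT (log2 fold change 0.29, SE 0.25, edgeR adjusted p = 0.780), with overlap.

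Of 12 other crosslinking enzymes, their processing proteins and copper suppliers, edgeR and DESeq2 called 0, with a median of 0.48 and 1 gene at an unadjusted edgeR p under 0.05. *Loxl3* (log2 fold change 0.52), *Loxl4* (0.47) and *Bmp1* (0.40), the protease that trims lysyl oxidase precursors, were higher than every WT library in ApoE-/- replicates 2 to 4 and overlapped with WT through replicate 1. *Atp7a*, *Slc31a1* and *Tll2* were instead highest in ApoE-/- replicate 1, at 220, 370 and 31.6 CPM. In the other ApoE-/- libraries they had 57.9 to 74.0, 22.2 to 52.0 and 0.394 to 1.35 CPM. Fold changes were above 0 for 11 of 12 genes with all libraries and for 8 without replicate 1. Without replicate 1 the median was 0.38, edgeR called *Pcolce*, and DESeq2 called 5 (*Pcolce*, *Bmp1*, *Fn1*, *Loxl3* and *Loxl4*). *Fn1*, fibronectin, had the highest mean CPM of this list, with 1928, 6457, 11981 and 6046 CPM in ApoE-/- and 3371, 2685, 4248 and 2792 CPM in WT replicates 1 to 4. Replicate 1 was again the lowest and replicate 3 the highest of the ApoE-/- libraries (log2 fold change 1.01, SE 0.50, edgeR adjusted p = 0.517).

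Among the proteases that cut elastin, replicate 1 stayed above the WT range for the 5 genes that DESeq2 called. Of 9 tested, edgeR called *Mmp12* and DESeq2 called *Mmp12*, *Ctss*, *Mmp2*, *Mmp14* and *Ctsl*. The median log2 fold change of the list was 1.17. *Mmp12*, macrophage elastase, had 9.21, 59.7, 89.1 and 140 CPM in ApoE-/- and 1.33, 1.73, 1.66 and 0.527 CPM in WT replicates 1 to 4 (log2 fold change 5.82, SE 0.85, edgeR adjusted p = 0.0396). All ApoE-/- libraries lay above all WT libraries, replicate 1 by the least. The edgeR call was lost without any single library other than ApoE-/- replicate 1 (adjusted p = 0.0584 to 0.169), without the low-count filter (0.0519), with the replicate block (0.178) and in limma-voom (0.145), and DESeq2 called *Mmp12* in all its fits.

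*Ctss*, cathepsin S, a lysosomal protease secreted by macrophages and smooth muscle cells, had 45.0, 129, 121 and 323 CPM in ApoE-/- and 19.6, 14.3, 9.14 and 16.6 CPM in WT replicates 1 to 4 (log2 fold change 3.37, SE 0.58, edgeR adjusted p = 0.0526, DESeq2 adjusted p = 3.57e-08). Replicate 4 was highest. *Mmp2*, gelatinase A, and *Mmp14*, its membrane-bound activator, had log2 fold changes of 1.18 (SE 0.21) and 1.17 (SE 0.20) with edgeR adjusted p of 0.0597 and 0.0526. Without replicate 1, edgeR called all 5 of these proteases, DESeq2 called *Ctsk* as well, and the median of the list was 1.32. The DESeq2 call of *Ctsl* was kept only when ApoE-/- replicate 1 or 2 was the library left out.

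Macrophage markers moved with the proteases. The 12 of them summed to 566 to 2406 CPM in ApoE-/- and 303 to 442 CPM in WT, with no overlap. *Cd68* and *Adgre1*, a lysosomal and a surface protein of macrophages, had 12.7 to 64.3 and 23.2 to 70.8 CPM in ApoE-/- against 5.54 to 9.09 and 14.2 to 19.6 CPM in WT. edgeR called *Fcgr1* and *Mpeg1* of this list and DESeq2 called 9 of 12, beside 0.464% and 4.81% of all genes. Without replicate 1 edgeR called 9 and DESeq2 called 12, beside 3.91% and 10.3% of all genes. Replicate 4 of ApoE-/- had the highest macrophage sum and was highest for none of the 10 members. The part of macrophages in the protease levels was not tested.

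Protease inhibitors went in both directions. *Timp1*, a secreted inhibitor of metalloproteases, had 37.7, 55.2, 108 and 90.4 CPM in ApoE-/- and 6.61, 8.94, 6.32 and 6.46 CPM in WT replicates 1 to 4 (log2 fold change 3.36, SE 0.35, edgeR adjusted p = 0.0353). The groups were far apart. The edgeR call was lost with the replicate block (adjusted p = 0.111) and without ApoE-/- replicate 3, ApoE-/- replicate 4 or any one WT library (0.0587 to 0.146), and DESeq2 called *Timp1* in all its fits. *Timp4* had 79.6, 117, 100 and 133 CPM in ApoE-/- and 180, 158, 196 and 183 CPM in WT replicates 1 to 4, lower without overlap (log2 fold change -0.74, SE 0.17, edgeR adjusted p = 0.0970, DESeq2 adjusted p = 0.00232). Of 7 tested, edgeR called 1 and DESeq2 called 2, and without ApoE-/- replicate 1 both tools called *Timp1*, *Timp2* and *Timp4*. *Timp3*, the inhibitor bound to the matrix, had a log2 fold change of 0.11 (edgeR adjusted p = 0.940).

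Of 12 elastin receptors and elastin-binding matrix genes, edgeR called 0 (3 at an unadjusted p under 0.05) and DESeq2 called *Lgals3* and *Glb1*. Without ApoE-/- replicate 1 edgeR called *Ctsa* (log2 fold change 0.60, SE 0.13, adjusted p = 0.0439) and *Lgals3* (2.80, SE 0.28, adjusted p = 0.00621), and DESeq2 called 6 of 12, all higher (*Bgn*, *Ctsa*, *Glb1*, *Itgb5*, *Lgals3* and *Vcan*). The median moved from 0.46 to 0.58. *Glb1* gives rise to the elastin-binding protein of the elastin receptor complex. It had 28.6, 23.7, 29.3 and 34.4 CPM in ApoE-/- and 21.2, 19.7, 19.2 and 19.1 CPM in WT replicates 1 to 4 (log2 fold change 0.55, SE 0.13, edgeR adjusted p = 0.102, DESeq2 adjusted p = 0.00542), and its DESeq2 call was lost without WT replicate 3 or WT replicate 4. The counts cannot part this splice form from the full-length beta-galactosidase. *Lgals3*, galectin-3, which binds elastin and is abundant in macrophages, had 32.9 to 176 CPM in ApoE-/- and 15.9 to 19.4 CPM in WT (log2 fold change 2.51, SE 0.46, edgeR adjusted p = 0.0629). *Ctsa*, the protective protein of the same receptor complex as *Glb1*, had 104, 122, 151 and 176 CPM in ApoE-/- and 104, 97.9, 96.5 and 97.4 CPM in WT replicates 1 to 4 (log2 fold change 0.49, SE 0.16, edgeR adjusted p = 0.266, DESeq2 adjusted p = 0.134). Its ranges were apart only by the small gap between the first library of each genotype. *Hspg2*, the basement membrane proteoglycan perlecan, with the highest mean CPM of this list over all 8 libraries, had 983 to 2609 CPM in ApoE-/- and 1324 to 1977 CPM in WT (log2 fold change 0.05, SE 0.35, edgeR adjusted p = 0.974), with overlap. In ApoE-/- alone the mean of *Bgn*, the proteoglycan biglycan, was higher (1815 against 1653 CPM).

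Fibrillar collagens had a median log2 fold change of 1.01 over 9 genes, *Col2a1* included. edgeR called 0 of them with all libraries (4 at an unadjusted p under 0.05) and *Col1a1*, *Col1a2*, *Col3a1* and *Col5a2* without ApoE-/- replicate 1. DESeq2 called *Col1a1* and *Col3a1* with all libraries and 5 genes without replicate 1, the 4 that edgeR called and *Col5a1*. *Col3a1*, collagen III, had 1484, 2151, 3797 and 3179 CPM in ApoE-/- and 997, 922, 1301 and 917 CPM in WT replicates 1 to 4 (log2 fold change 1.36, SE 0.32, edgeR adjusted p = 0.107, DESeq2 adjusted p = 0.000583). The genotypes did not overlap, replicate 1 included, unlike for *Eln*. *Col1a1*, collagen I, had 604, 1055, 2538 and 1382 CPM in ApoE-/- and 621, 481, 736 and 536 CPM in WT replicates 1 to 4, with replicate 1 inside the WT range (log2 fold change 1.23, SE 0.41, edgeR adjusted p = 0.264, DESeq2 adjusted p = 0.0472). Its DESeq2 call was kept without ApoE-/- replicate 1 and lost without any other single library.

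Of 10 TGF-beta ligands, receptors and Smads, the growth factor system that latent binding proteins such as *Ltbp4* hold in the matrix, edgeR and DESeq2 called 0 with all libraries, and 0 had an unadjusted edgeR p under 0.05. The median was 0.17. Without ApoE-/- replicate 1 it was 0.18, edgeR called 0 (4 at an unadjusted p under 0.05), and DESeq2 called *Tgfb2* and *Smad3*, both higher in ApoE-/-. *Tgfb1*, *Tgfb2* and *Tgfb3* had log2 fold changes of 0.35 (SE 0.28), 0.74 (SE 0.44) and -0.34 (SE 0.25). Of these 3 ligands, only *Tgfb2* was higher than every WT library in ApoE-/- replicates 2 to 4. *Tgfbr3*, the co-receptor betaglycan, with the highest mean CPM of this list over all 8 libraries, had 255, 243, 262 and 240 CPM in ApoE-/- and 268, 298, 268 and 299 CPM in WT replicates 1 to 4. All 4 ApoE-/- libraries were below every WT library, and the difference passed in neither tool with or without replicate 1 (all libraries, log2 fold change -0.18, SE 0.10, edgeR adjusted p = 0.616, DESeq2 adjusted p = 0.216). In ApoE-/- alone the mean of *Tgfbr2* was higher (262 against 250 CPM).

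**Figure D5:**
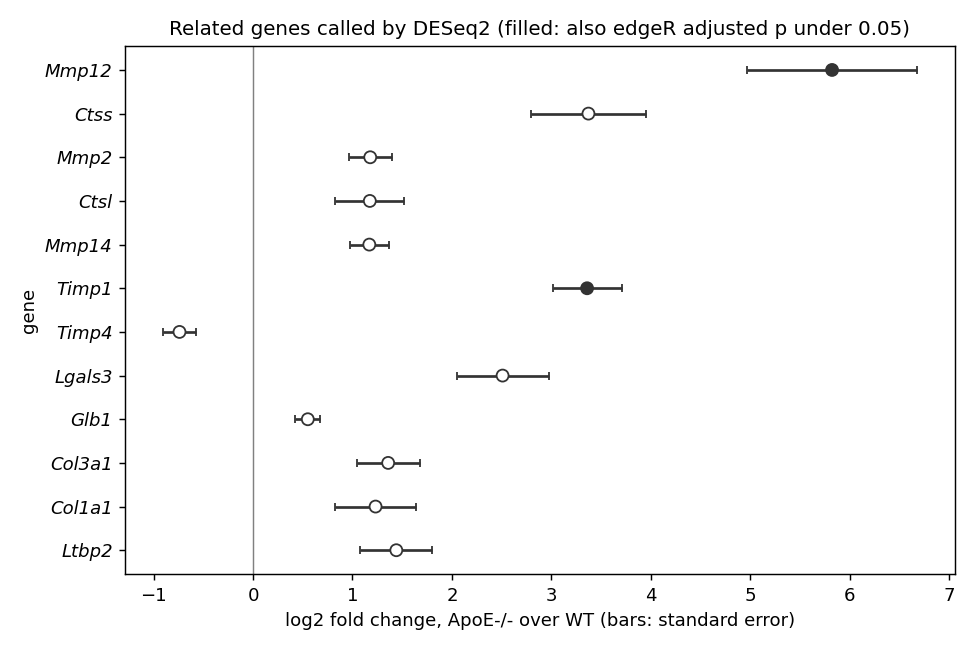
Fitted log2 fold change (ApoE-/- over WT, all 8 libraries) with standard error for the 12 genes of the related lists that DESeq2 called. Filled points, *Mmp12* (5.82) and *Timp1* (3.36), also had an edgeR adjusted p under 0.05, and *Timp4* (-0.74) is the single gene below 0.

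The start sites of 5 members had an upstream sequence in RefSeq (GRCm38.p6), in 10 entries. An entry each of the paralogs *Fbln5* and *Efemp2* is shown, chosen because the 250 bases before these starts overlap no annotated exon, as holds for 1 entry of *Ltbp4*, not shown. Matches to GGGCGG, the GC box bound by Sp1, and to CAGAC, a Smad-binding motif, are in capitals, on either strand. The *Fbln5* sequence (chr12:101819120-101819369, minus strand) holds 2 matches to GGGCGG and 0 to CAGAC, and that of *Efemp2* (chr19:5473696-5473945, plus strand) holds 2 of each. Neither holds TATAAA. The counts depend on the start site: the other entry of *Fbln5*, which overlaps an exon, holds 0 and 2 matches to GGGCGG and CAGAC, and both other entries of *Efemp2*, which also overlap exons, hold 5 and 0. Of 32851 such sequences in the table, 32.7% hold GGGCGG, 42.2% hold CAGAC and 12.4% hold TATAAA. A match is a description of the letters and not evidence of binding.
*Fbln5* upstream: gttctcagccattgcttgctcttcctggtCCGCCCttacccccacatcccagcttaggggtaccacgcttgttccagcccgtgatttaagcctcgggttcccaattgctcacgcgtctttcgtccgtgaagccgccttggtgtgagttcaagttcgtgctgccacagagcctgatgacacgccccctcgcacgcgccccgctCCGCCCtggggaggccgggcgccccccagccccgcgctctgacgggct
*Efemp2* upstream: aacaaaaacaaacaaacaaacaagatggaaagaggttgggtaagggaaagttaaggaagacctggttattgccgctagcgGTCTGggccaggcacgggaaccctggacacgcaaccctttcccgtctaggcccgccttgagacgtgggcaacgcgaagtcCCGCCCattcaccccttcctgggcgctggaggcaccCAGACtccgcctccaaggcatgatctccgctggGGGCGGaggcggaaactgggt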

How the data were processed

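Total aortic RNA was ribodepleted, made into stranded libraries and sequenced in pairs, as the study's methods state. The submitters' processing notes name TopHat2, HTSeq and the builds GRCm38 and mm10. Their versions and the annotation release are not given in the sources used here. The authors deposited, for each mouse, unnormalized gene counts of read pairs. Closing rows that name no gene held 64.4% to 72.1% of all pairs and were left out of library sizes and tests.

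Gene coordinates came from GENCODE M21 (GRCm38), which held 21817 of 21859 identifiers. Genes kept by filterByExpr (15077) were compared in R 4.3.3 with edgeR 4.0.16 (TMM factors, robust quasi-likelihood F test, genotype only, two-sided) and Benjamini-Hochberg adjustment over all of them, with a threshold of 0.05. Standard errors are the log2 fold change divided by the square root of F. DESeq2 1.42.0, the study's tool, and limma 3.58.1 voom were alternatives, with other scalings, filters, a replicate block and the omission of each library. No 2 libraries were alike within sampling noise. The fits were tested on simulated counts. Scaling to smooth muscle genes, the sympathetic neuron list, and the order of levels and likeness to *Eln* without ApoE-/- replicate 1 were added after seeing the data.

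The members and lists were chosen with earlier results of these data known. Named genes were all members, *Apoe*, genes of related lists that either tool called or whose genotypes did not overlap, abundant list genes, leading markers, and the 5 genes most like *Eln*. Genes named beyond that (*Fbln1*, *Fbln2*, *Mfap5*, *Loxl3*, *Loxl4*, *Bmp1*, *Fcgr1*, *Mpeg1*, *Tgfbr2*, *Slc39a14*, *Lum*, *Col2a1*, the TGF-beta ligands and genes called only without ApoE-/- replicate 1) were chosen after their values were seen. So were *Pi16*, *Atp7a*, *Slc31a1* and *Tll2*.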

Additional observations from a re-analysis of the deposited data

Results flagged for a closer look

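Each genotype's 4 values of the members and of the called related genes were examined for a single library far from the other 3, in 44 groups, where chance gives about 2.2 flags. There were 2. *Lox* in ApoE-/- replicate 1 was at 63.1 CPM, against 252 to 285 CPM in the other ApoE-/- libraries, and its gap made up 0.852 of the range. *Timp1* in WT replicate 2 was at 8.94 CPM, against 6.32 to 6.61 CPM in the other WT libraries, a gap of 0.888 of the range. The number flagged is about that given by chance, and what set either library apart was not tested.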

How the results depend on the processing

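Of the 10 members, *Eln*, *Fbn1*, *Fbln5*, *Efemp2*, *Emilin1*, *Lox*, *Loxl1* and *Loxl2* kept a log2 fold change above 0 under all 25 alternatives. That of *Mfap4* was -0.038 with limma-voom and -0.012 with the replicate block, and that of *Ltbp4* -0.072 and -0.069. Leaving out 1 library at a time, *Mfap4* ranged from -0.052 to 0.47 in edgeR and from -0.054 to 0.47 in DESeq2, and *Ltbp4* from -0.15 to 0.29 in edgeR and from -0.15 to 0.28 in DESeq2. In both tools *Mfap4* was below 0 without ApoE-/- replicate 2, and *Ltbp4* without ApoE-/- replicate 2, ApoE-/- replicate 3 or WT replicate 4. The number of members past the threshold was 0 with every alternative that kept all 8 libraries except DESeq2, which gave 1. Leaving out 1 library, it ranged from 0 to 6 in edgeR and from 1 to 8 in DESeq2, with the highest values without ApoE-/- replicate 1. Over all genes, 70 passed (56 higher, 14 lower). DESeq2 gave 725 (470 and 255), limma-voom 27 (20 and 7), and the smooth muscle scaling 47 with 1 lower. Requiring 10 counts in every library left 9 lower. Leaving out 1 library gave 0 to 593 genes in edgeR (0 to 417 higher, 0 to 176 lower) and 445 to 1562 in DESeq2 (291 to 871 higher, 141 to 691 lower). Genes of the related lists past the threshold numbered 2, against 12 with DESeq2, 1 with limma-voom, 1 without a filter, 4 with the smooth muscle scaling, 0 to 16 without 1 library in edgeR and 9 to 29 in DESeq2. The labels do not say whether the replicate numbers, shared by the genotypes, pair the mice. Correlations of same-numbered deviations were 0.06, -0.45, 0.32 and 0.16, too few values to decide it. With the replicate block, 2 genes passed (1 higher, 1 lower), with 0 members and 0 genes of related lists. The cause of these shifts was not tested. With 4 mice a group, precision is limited, and members had 379 to 38269 counts.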
